A study of Homo sapiens with 11 samples.

Results

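The miRNAs transcribed from the 4 human HOX clusters were examined in untreated parental cells of 6 human cancer cell lines. The 7 members were taken by name: hsa-miR-10a-5p, hsa-miR-10a-3p, hsa-miR-10b-5p, hsa-miR-10b-3p, hsa-miR-196a-5p, hsa-miR-196b-5p and hsa-miR-615-3p. They are 7 of the 2588 mature miRNAs listed and take 8 of the 2813 rows, since miR-196a-5p has a row for each of its hairpins. The lines were A549 (lung), ES2 (ovary), MV3 (melanoma), PANC1 (pancreas), BE(2)C (neuroblastoma) and HepG2 (liver), and no genotype was altered. Small RNA was sequenced in 11 libraries, 2 biological replicates per line and 1 for PANC1, so that PANC1 values carry no replicate check. NEXTflex libraries were made from A549, ES2, MV3 and PANC1, whereas Novogene prepared those of BE(2)C and HepG2, so that line and preparation cannot be told apart where these sets are compared. Cells were harvested 48 h after seeding, except that for BE(2)C the growth protocol gives 24 h and the sample characteristics give 48 h. Each line is a single long-cultured isolate and stands for no tissue.

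HOX genes encode the homeobox transcription factors that set position along the body axis, and they lie in 4 clusters in the order in which they are used. Several miRNA genes are embedded in these clusters and are transcribed from the same strand. The miR-10 genes lie next to the HOX4 paralogs, the miR-196 genes next to the HOX9 paralogs, and miR-615 lies within the HOXC cluster. miR-196 is known for cleaving HOXB8 mRNA, to which it pairs almost completely, and miR-10b for its study in tumour invasion. In cultured cells, the set of HOX genes in use often reflects the origin of the cells.

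The mature sequences are shown because closely related members can only be counted apart where their letters differ. RefSeq (GRCh38.p14) gave 6 of the 7 members, all but miR-10b-5p, printed below 5′ to 3′ with the seed, bases 2 to 8, in capitals.
miR-10a-5p: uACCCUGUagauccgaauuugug
miR-10a-3p: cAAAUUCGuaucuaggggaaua
miR-10b-3p: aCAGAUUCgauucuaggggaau
miR-196a-5p: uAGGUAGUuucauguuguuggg
miR-196b-5p: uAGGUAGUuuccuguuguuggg
miR-615-3p: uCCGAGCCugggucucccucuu
miR-196a-5p and miR-196b-5p differed by the single substitution A12C, counted from the 5′ end, and they alone among the 2370 mature miRNAs in that table carried the seed AGGUAGU. The arms of miR-10a and miR-10b on the 3′ side are less alike and had different seeds. Most of their letters match, however, when miR-10b-3p is read from base 2, so that their seeds are offset.

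The 6 hairpins that give rise to the members were spread over all 4 clusters (GRCh38.p14). MIR10A (ENSG00000284038.1) lies at chr17:48579838-48579947 on the minus strand, within an intron of HOXB3 and 1487 bp from HOXB4. MIR10B (ENSG00000207744.1) lies at chr2:176150303-176150412 on the plus strand, within an intron of HOXD3 and 1137 bp from HOXD4. The hairpins of miR-10 therefore occupy matching places in the HOXB and HOXD clusters. MIR196A1 (ENSG00000210741.1), at chr17:48632490-48632559 on the minus strand, falls in an intron of HOXB7 and 6131 bp from HOXB9. MIR196A2 (ENSG00000207924.3), at chr12:53991738-53991847 on the plus strand, falls in an intron of HOXC6, 1458 bp from HOXC10 and 3047 bp from HOXC9. MIR196B (ENSG00000283745.1), at chr7:27169480-27169563 on the minus strand, overlaps an exon of a HOXA9 transcript and is 1041 bp from HOXA10. MIR615 (ENSG00000207571.1), at chr12:54033950-54034045 on the plus strand, is intronic to both HOXC4 and HOXC5. Since miR-196a-5p is made from MIR196A1 and MIR196A2, its level cannot be assigned to HOXB or HOXC.

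**Figure D1:**
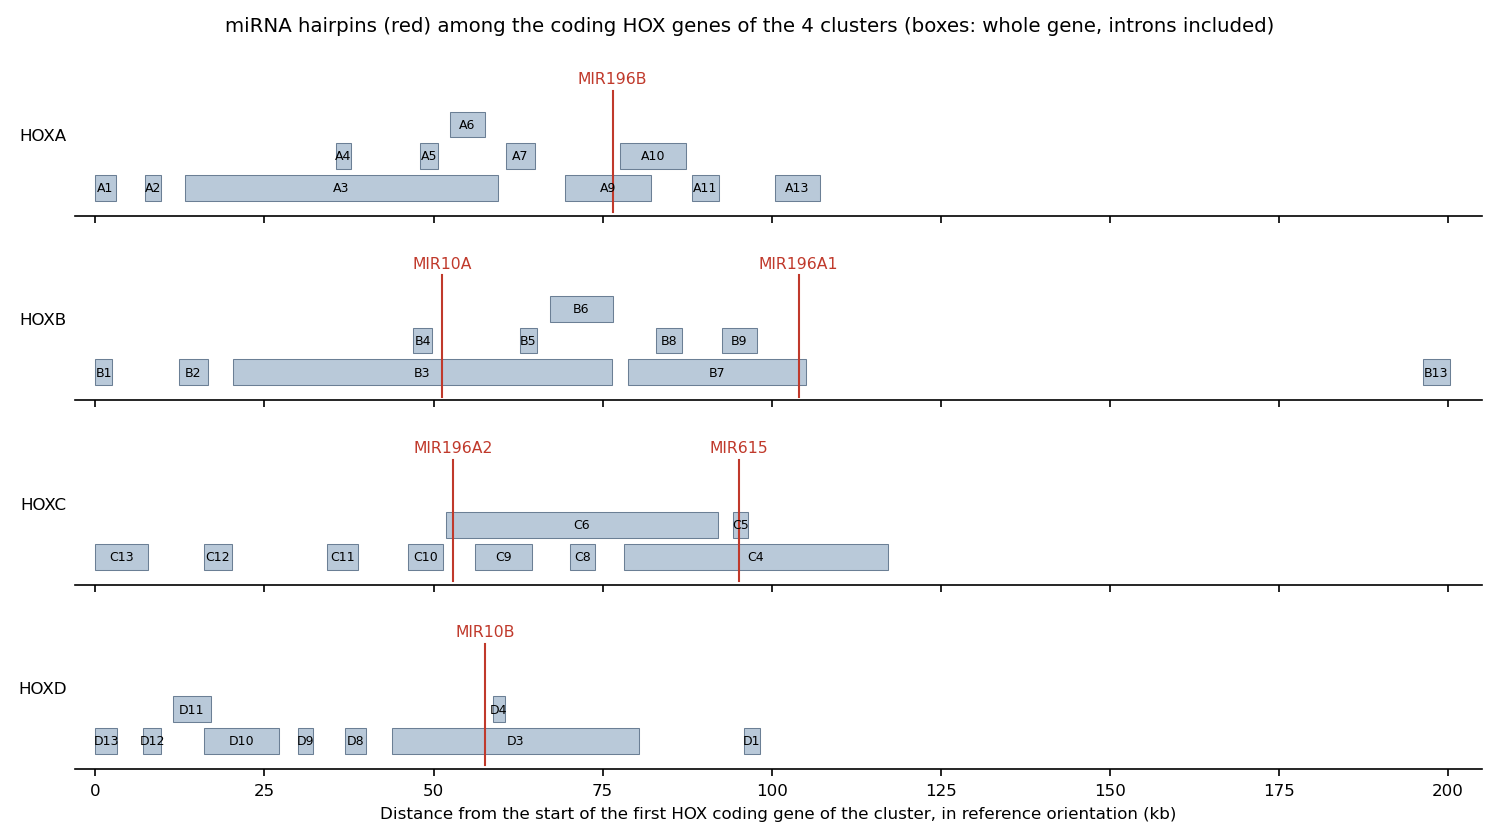
Coding HOX genes (boxes, introns included) and miRNA hairpins (red lines) of the HOXA, HOXB, HOXC and HOXD clusters, drawn to scale in kb from the start of the first coding HOX gene in reference orientation. MIR10A and MIR10B sit beside HOXB4 and HOXD4, and the 3 miR-196 hairpins sit beside a HOX9 paralog.

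The libraries held 1173902 to 12137452 reads assigned to miRNAs, and a count of 0 allows a level of up to 0.247 to 2.56 CPM (reads per 1000000 miRNA reads, the unit of all levels below) at a limit of 3 reads. Intervals and limits cover counting error only. Marker miRNAs were compared with the labels. The summed neuroblastoma markers (miR-7-5p, miR-9-5p, miR-124-3p and miR-375) reached 58272 and 90989 CPM in BE(2)C against at most 4586 CPM elsewhere. The summed liver markers (miR-122-5p, miR-192-5p, miR-194-5p and miR-885-5p) reached 15837 and 16458 CPM in HepG2 against at most 4762 CPM elsewhere, almost entirely through miR-192-5p. The others were higher in another line. The hepatocyte miRNA miR-122-5p had only 50.0 and 64.0 CPM in HepG2 against 823 CPM in BE(2)C replicate 1. By line mean, miR-194-5p stood at 230 CPM in HepG2 against 1891 CPM in A549, and miR-885-5p at 2.12 CPM against 6.25 CPM in BE(2)C. The melanocyte miRNAs miR-211-5p, miR-509-3p and miR-514a-3p had no read in either MV3 library, and the acinar miRNAs miR-216a-5p and miR-217 had none in PANC1. The summed epithelial miR-200 family and miR-205-5p were highest in HepG2, at 1371 and 1422 CPM. They reached 899.99 and 977 CPM in A549 but 47.1 to 129 CPM in ES2 and PANC1. Most of the sum in HepG2 and A549 was miR-200b-3p. In contrast, miR-141-3p was lower in A549 (mean 0.243 CPM) than in ES2 (4.50 CPM) and PANC1 (3.49 CPM). In HepG2, miR-148a-3p and miR-21-5p together took 91.5% and 91.9% of all reads, against at most 69.5% for the leading pair of any other library.

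The 7 miRNAs differed widely among the lines. PANC1 held the highest levels of miR-10a, miR-196a-5p and miR-615-3p, BE(2)C that of miR-10b-5p, and A549 and ES2 those of miR-196b-5p. HepG2 had close to no reads of miR-196a-5p, miR-196b-5p, miR-615-3p and the 3p arms. The highest line mean of miR-10b-5p was 17.0 times its lowest on CPM and 6.07 times with TMM factors, an alternative scaling of the libraries, and that of miR-10a-5p 4921 and 806 times. Across the 6 lines, all 7 members passed the moderated F test (limma on log2(CPM + 1), Benjamini-Hochberg adjusted over 546 miRNAs), with adjusted p from 2.07e-07 to 0.000119. This share is close to the background, since 99.3% of all tested miRNAs passed. Among the 4 NEXTflex lines, which share a preparation, the 7 members again passed (adjusted p 1.62e-05 to 0.00831), against 85.4% of 453 tested miRNAs. Of the 105 differences between a pair of lines, 89 passed the threshold of 0.05 in the 11-library fit, that is 84.8%, against 63.6% of the same tests over all miRNAs. Within the NEXTflex lines, 31 of 42 passed, or 73.8%, against 49.1% over all miRNAs. Between BE(2)C and HepG2 5 of 7 passed, or 71.4%, below the 83% of all miRNAs.

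The members that passed were counted for each pair, beside the share of all tested miRNAs that passed. All 7 members differed between A549 and HepG2 (background 67.6%), ES2 and HepG2 (60.8%) and MV3 and HepG2 (69.6%), each of them higher in the line other than HepG2 on CPM. All 7 also differed between A549 and BE(2)C (76.7%) and between PANC1 and BE(2)C (71.2%). Between PANC1 and A549 (43.8%), ES2 (57.3%), MV3 (53.1%) and HepG2 (75.1%), 6 of 7 passed each time. BE(2)C differed from ES2 (77.5%) and from MV3 (78%) in 6 of 7. Fewer passed between A549 and MV3 (5 of 7, 57.3%), A549 and ES2 (4 of 7, 50.5%), and ES2 and MV3 (4 of 7, 32.8%). The same libraries enter several of these pairs, so that the counts are not independent of each other.

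**Figure D2:**
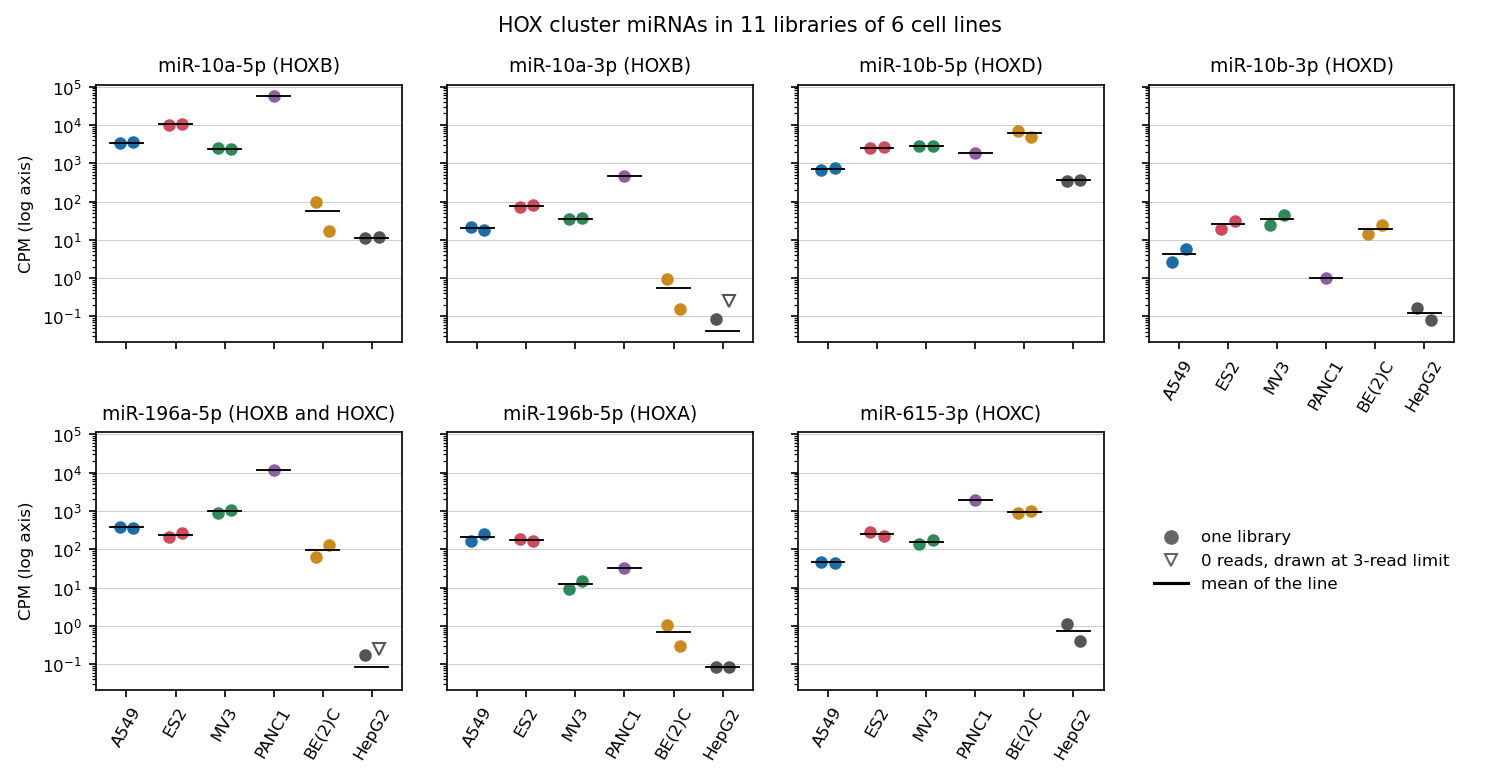
CPM of each member in every library (points, log axis) with the mean of the line (bars), where open triangles mark a library with 0 reads drawn at its 3-read limit. On this scale PANC1 is highest for miR-10a-5p (56313 CPM), miR-196a-5p (11978 CPM) and miR-615-3p (1965 CPM), and HepG2 is lowest for each member, although with TMM factors it is not lowest for miR-10a-5p, miR-10b-5p and miR-10b-3p.

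miR-10a-5p, the guide strand of the HOXB hairpin, had the highest level of any member in any library, although miR-10b-5p exceeded it in MV3, BE(2)C and HepG2. The PANC1 library held 56313 CPM, which made it the third most abundant miRNA of that library. ES2 held 10271 and 10397 CPM, A549 3352 and 3584 CPM, and MV3 2447 and 2376 CPM. The levels of these 4 lines did not overlap, and replicates lay close together. BE(2)C held 99.3 CPM in replicate 1 and 17.1 CPM in replicate 2, a ratio of 5.80, and HepG2 held 10.9 and 11.9 CPM. Every NEXTflex library therefore exceeded every Novogene library on CPM. MV3, the lowest NEXTflex line, exceeded BE(2)C by 5.82 ± 0.65 on the log2(CPM + 1) scale (SE, limma adjusted p = 8.72e-05), which was 7.06 without BE(2)C replicate 1 and 4.59 without replicate 2. It exceeded HepG2 by 7.60 ± 0.65 (adjusted p = 1.83e-05), or by 4.41 with TMM factors.

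The discordant BE(2)C libraries set the error of miR-10a-5p in the fit over all lines. There, PANC1 exceeded ES2 by 2.45 ± 0.80 (log2 difference, limma adjusted p = 0.0319), while ES2 against A549 (1.58 ± 0.65, adjusted p = 0.0826) and A549 against MV3 (0.52 ± 0.65, adjusted p = 0.54) did not pass. In the fit restricted to the NEXTflex lines, the same differences had errors of 0.050 to 0.062 and all passed, with limma adjusted p of 2.22e-05, 3.01e-05 and 0.000806. The call of PANC1 over ES2 held in only 8 of 20 alternative fits over all lines. Among others, it was lost with TMM factors (2.03) and in 8 of 10 leave-one-out fits, namely without either library of A549, ES2, MV3 or HepG2. The call of ES2 over MV3 (2.10, limma adjusted p = 0.0443) was lost in the same 8 of 10 leave-one-out fits. BE(2)C exceeded HepG2 by 1.78 ± 0.65 (adjusted p = 0.0345), a call that was lost within the Novogene libraries alone (adjusted p = 0.102) and without either library of A549, ES2, MV3 or HepG2 (adjusted p 0.0552 to 0.113). With TMM factors the direction turned, to -1.11 (adjusted p = 0.171).

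The BE(2)C replicates differed more than those of any other line. The SD of a single library was 0.70 on the log2 scale, against 0.20 to 0.38 in the other replicated lines. Of the neuroblastoma markers, miR-7-5p stood at 68724 CPM in replicate 1 and 35823 CPM in replicate 2, and miR-375 at 6373 and 4866 CPM. miR-9-5p (15875 and 17555 CPM) and miR-124-3p (17.7 and 28.1 CPM) were lower in replicate 1. Markers of other cells also differed between the BE(2)C libraries. The hepatocyte miRNA miR-122-5p stood at 823 CPM in replicate 1 and 5.96 CPM in replicate 2. The other liver markers did not move alike, with miR-192-5p at 1288 and 578 CPM, miR-194-5p at 160 and 258 CPM and miR-885-5p at 6.38 and 6.12 CPM, and the sum of the 4 stood at 2277 and 848 CPM. The erythroid miRNA miR-451a stood at 299 and 46.0 CPM and the summed blood markers at 299.8 and 46.0 CPM, with the other blood markers miR-144-3p and miR-223-3p at or near 0. miR-10a-5p, miR-10a-3p and miR-196b-5p were higher in replicate 1 as well, by ratios of 5.80, 6.09 and 3.48, and miR-10b-5p by 1.46. In contrast, miR-196a-5p (62.8 and 131 CPM) and miR-10b-3p (14.4 and 24.0 CPM) were lower in replicate 1, and miR-615-3p was nearly level (901 and 992 CPM). The part of these markers in the miR-10a levels was not tested.

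miR-10a-3p, the passenger strand, followed its guide at a far lower level. PANC1 held 455 CPM, ES2 72.8 and 81.0 CPM, MV3 34.9 and 36.8 CPM, and A549 21.3 and 18.4 CPM. BE(2)C had 7 and 1 reads and HepG2 1 and 0 reads, which are levels at or near the limit of detection. PANC1 exceeded ES2 by 2.55 ± 0.40 (limma adjusted p = 0.0011). The order of A549 and MV3 was the reverse of that of the guide, with MV3 higher by 0.82 ± 0.33 (adjusted p = 0.0657, and 0.0145 within NEXTflex), although with DESeq2 size factors A549 was higher, by 0.19. ES2 exceeded MV3 by 1.08 ± 0.33 (limma adjusted p = 0.0407, and 0.00985 within NEXTflex). This call held in 10 of 20 alternative fits over all lines and was lost, among others, without either library of A549, ES2, MV3 or HepG2.

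miR-10b-5p, the guide strand from the HOXD cluster, varied least and was read in every line. BE(2)C held 7143 and 4890 CPM, the highest of all lines. MV3 held 2767 and 2886 CPM, ES2 2531 and 2593 CPM, and PANC1 1853 CPM. A549 held 656 and 736 CPM and HepG2 344 and 364 CPM. The PANC1 level rests on 18061 reads, beside 548877 reads of miR-10a-5p. How reads that could match either 5p arm were assigned is not given, and its part in the PANC1 level was not tested. BE(2)C exceeded MV3 by 1.06 ± 0.19 (limma adjusted p = 0.00114), and PANC1 exceeded A549 by 1.41 ± 0.23 (adjusted p = 0.0023), a difference that fell to 0.68 with TMM factors (adjusted p = 0.101). The neighbours MV3 and ES2 (0.14 ± 0.19, adjusted p = 0.652) and ES2 and PANC1 (0.47 ± 0.23, adjusted p = 0.126, and 0.00804 within NEXTflex) did not pass in the 11-library fit.

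The place of HepG2 in the order of miR-10b-5p depended on the scaling. On CPM it was lowest, below A549 by 0.97 ± 0.19 (limma adjusted p = 0.00224). With TMM factors, which scale libraries by the trimmed mean of their log ratios and were 0.166 and 0.217 for HepG2 against 1.02 to 1.87 for the other libraries, its mean was 1874, close to ES2 (1940) and above MV3 (1529), PANC1 (1050) and A549 (655). On that scale HepG2 exceeded A549 by 1.51 (adjusted p = 0.000424) and PANC1 by 0.83 (adjusted p = 0.0291), and it stood below BE(2)C by 1.05 (adjusted p = 0.0037), while its differences from ES2 (adjusted p = 0.907) and MV3 (adjusted p = 0.325) did not pass. The median difference of all miRNAs between A549 and HepG2 was 1.55 on CPM and 0.18 with TMM factors. Relative to these medians, miR-10b-5p was the higher in HepG2 on both scales. By rank, miR-10b-5p was the 37th and 38th most abundant miRNA of the HepG2 libraries, the 59th and 64th of A549, and the 23rd and 33rd of BE(2)C. The other guide strands remained lower in HepG2 than in A549, ES2, MV3 and PANC1 on either scale.

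**Figure D3:**
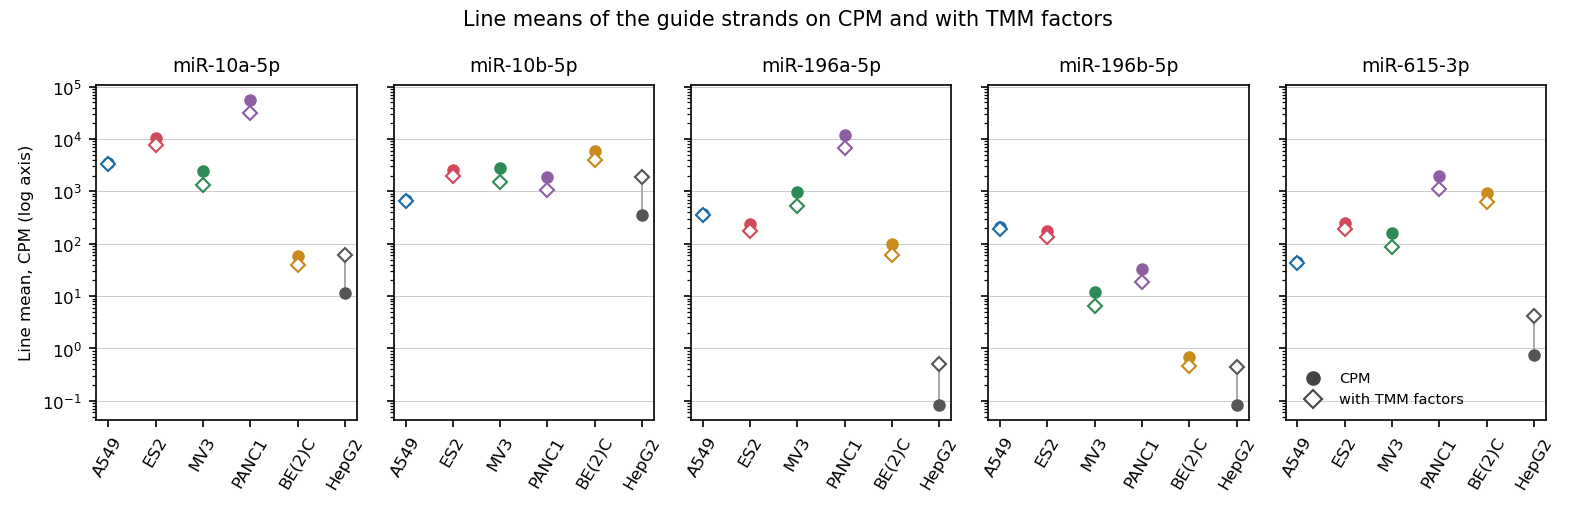
Line means of the 5 guide strands as CPM (filled circles) and with TMM factors (open diamonds), on a log axis. HepG2 alone moves up, and its miR-10b-5p goes from the lowest mean (354) to 1874, between MV3 and ES2, whereas its miR-196a-5p, miR-196b-5p and miR-615-3p stay below 5.

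miR-10b-3p, the passenger strand, was low throughout. MV3 held 23.9 and 44.5 CPM, ES2 19.2 and 31.8 CPM, and BE(2)C 14.4 and 24.0 CPM. These 3 lines overlapped, and none of their differences passed (limma adjusted p 0.184 to 0.634). A549 held 2.62 and 5.82 CPM, below BE(2)C by 1.98 ± 0.49 (adjusted p = 0.00681, and 0.0509 without BE(2)C replicate 2). PANC1 held 10 reads, or 1.03 CPM, and HepG2 2 and 1 reads. PANC1 against A549 (adjusted p = 0.119) and against HepG2 (adjusted p = 0.246) did not pass.

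The balance of miR-10a and miR-10b, a ratio within each library that is free of scaling, separated the lines. miR-10a-5p made up 96.8% of the summed 5p reads in PANC1, 83.3% ± 0.473 (SD, n = 2) in A549 and 80.1% ± 0.139 in ES2. MV3 stood near balance at 46.0% ± 1.25. HepG2 had 3.13% ± 0.0632 and BE(2)C 0.86% ± 0.723. In A549, ES2 and PANC1 the HOXB copy thus outnumbered the HOXD copy, and in BE(2)C and HepG2 the HOXD copy outnumbered the HOXB copy. BE(2)C and HepG2 are also the Novogene lines, so that line and preparation cannot be told apart in this contrast. The 3p arms, whose sequences differ more, gave the same order of line means outside HepG2: 99.8% in PANC1, 82.5% ± 9.24 in A549, 75.4% ± 5.14 in ES2, 52.3% ± 10.0 in MV3 and 3.36% ± 3.86 in BE(2)C. Their order for A549 and ES2 is not resolved, since the libraries overlapped (89.1% and 76.0% against 79.1% and 71.8%). The BE(2)C share rests on 7 and 1 reads of miR-10a-3p. HepG2 had 4 reads of the 3p arms in all, too few to give a share.

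**Figure D4:**
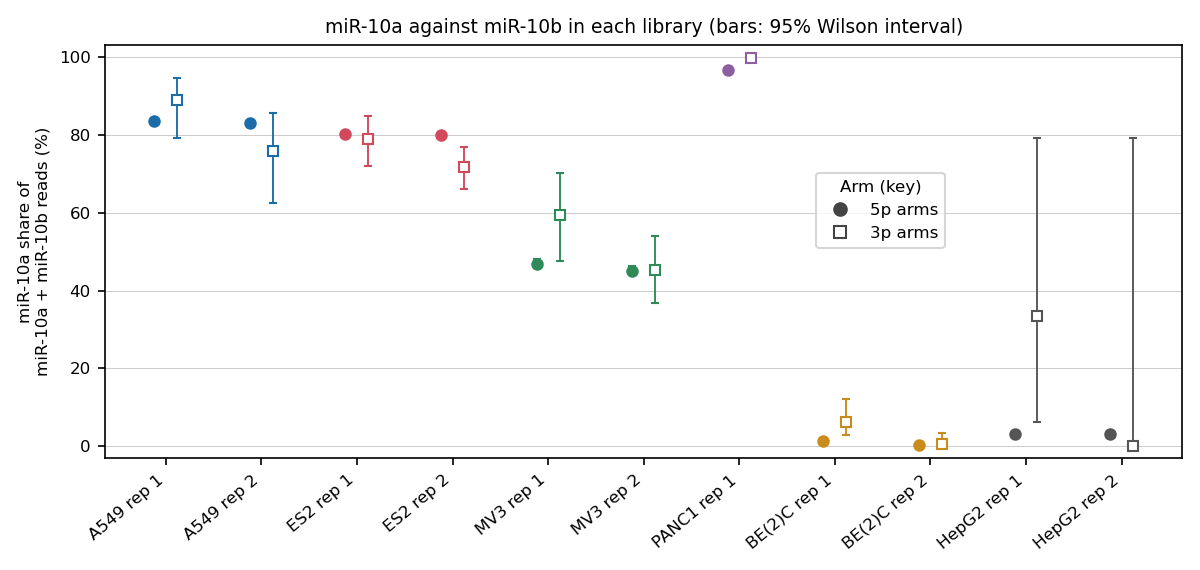
Share of miR-10a in the reads of miR-10a and miR-10b together (%), by library, for the 5p arms (filled circles) and the 3p arms (open squares), with 95% Wilson intervals from the reads. Shares are above 70% in A549, ES2 and PANC1, between 45% and 60% in MV3, and below 7% in BE(2)C, while the HepG2 3p intervals span most of the axis.

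The 5p arm was the guide of both miR-10 hairpins in all lines. For miR-10a, the 3p arm made up 0.512% to 1.52% of the hairpin's reads in the libraries with more than 1 3p read, highest in MV3 at 1.41% and 1.52%. For miR-10b it made up 0.201% to 1.52% in A549, ES2, MV3 and BE(2)C. In PANC1 it was 0.0553% (10 of 18071 reads, 95% Wilson interval 0.0301% to 0.102%), and in HepG2 0.0489% and 0.0226%. The PANC1 interval lay below those of all A549, ES2, MV3 and BE(2)C libraries. In PANC1, miR-10b thus accounted for 3.19% of the 5p reads but 0.225% of the 3p reads of the pair. How reads that could match either 5p arm were assigned is not given in the sources used here, and its part in this difference was not tested.

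miR-196a-5p, made from hairpins in HOXB and HOXC, spanned the widest range. PANC1 held 11978 CPM, and it ranked 14th in that library. MV3 held 869 and 1088 CPM, A549 393 and 360 CPM, ES2 209 and 263 CPM, and BE(2)C 62.8 and 131 CPM. HepG2 held 2 and 0 reads, a pooled level of 0.0833 CPM with an exact Poisson 95% interval of 0.0101 to 0.301 CPM. PANC1 exceeded MV3 by 3.62 ± 0.42 (limma adjusted p = 0.000275). MV3 exceeded A549 by 1.37 ± 0.34 (adjusted p = 0.0102), a call that was lost with TMM factors (0.57), without A549 replicate 2 and without MV3 replicate 2 (adjusted p 0.0572 and 0.0661). A549 against ES2 did not pass in the 11-library fit, whose error is pooled over all lines (0.68 ± 0.34, adjusted p = 0.138). It passed within NEXTflex (adjusted p = 0.0191). ES2 exceeded BE(2)C by 1.36 ± 0.34 (adjusted p = 0.00682), and BE(2)C exceeded HepG2 by 6.41 ± 0.34 (adjusted p = 8.56e-07).

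miR-196b-5p, from the HOXA cluster, had another order. A549 held 161 and 253 CPM and ES2 185 and 165 CPM, and these lines overlapped (0.21 ± 0.38, limma adjusted p = 0.683). PANC1 followed at 33.0 CPM, below ES2 by 2.37 ± 0.47 (adjusted p = 0.00348), and MV3 held 9.37 and 14.8 CPM. The PANC1 level rests on 322 reads, beside 116744 reads of miR-196a-5p, which differs by a single substitution. How reads close to both paralogs were assigned is not given, and its part in this level was not tested. PANC1 exceeded MV3 by 1.41 ± 0.47 (limma adjusted p = 0.0371), a call that held in 12 of 20 alternative fits over all lines. Among others, it was lost without either library of ES2 or HepG2 and without MV3 replicate 1. MV3 exceeded BE(2)C by 2.97 ± 0.38 (adjusted p = 0.000183). BE(2)C had 8 and 2 reads and HepG2 1 read in each library, and their difference did not pass (adjusted p = 0.181).

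The miR-196 paralogs thus differed in where they were read, although they share a seed. miR-196a-5p made up 64.8% ± 8.66 (SD, n = 2) of the pair's reads in A549 and 57.3% ± 5.85 in ES2. In MV3, BE(2)C and PANC1 it made up 98.8% ± 0.198, 99.1% ± 1.01 and 99.7%. A549 and ES2 were the lines in which a sizeable part of the reads with this seed came from HOXA. HepG2 had 4 reads of the pair in all.

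miR-615-3p, from the HOXC cluster, joined PANC1 and BE(2)C at the top. PANC1 held 1965 CPM and BE(2)C 901 and 992 CPM. ES2 held 275 and 227 CPM, MV3 141 and 175 CPM, and A549 47.6 and 43.2 CPM. HepG2 had 13 and 5 reads, a pooled 0.749 CPM (exact Poisson 95% interval 0.444 to 1.18 CPM). PANC1 exceeded BE(2)C by 1.06 ± 0.30 (limma adjusted p = 0.0142), which did not pass with TMM factors (0.85). BE(2)C exceeded ES2 by 1.91 ± 0.24 (adjusted p = 0.000163), and A549 exceeded HepG2 by 4.75 ± 0.24 (adjusted p = 1.33e-06). MV3 exceeded A549 by 1.77 ± 0.24 (adjusted p = 0.00062), a difference of 0.98 with TMM factors that did not pass. ES2 against MV3 did not pass in the 11-library fit, whose error is pooled over all lines (0.67 ± 0.24, adjusted p = 0.0743). It passed within NEXTflex (adjusted p = 0.0304).

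By cluster of origin, the members' reads fell into distinct compositions. Together the 7 miRNAs took 7.26% of all miRNA reads in PANC1, 1.37% in ES2, 0.714% in BE(2)C, 0.646% in MV3, 0.482% in A549 and 0.0367% in HepG2. HOXB, through both arms of miR-10a, supplied 78.2% of them in PANC1, 76.2% in ES2 and 72.4% in A549. MV3 was divided between HOXD (44.3%), HOXB (37.9%) and miR-196a-5p (15.1%). In BE(2)C, HOXD supplied 84.1% and HOXC, through miR-615-3p, 13.7%, and in HepG2 HOXD supplied 96.6%. Both of these lines were prepared by Novogene, so that their contrast with the NEXTflex lines is also one of preparation. The HOXA share, through miR-196b-5p, was largest in A549 at 4.27%.

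**Figure D5:**
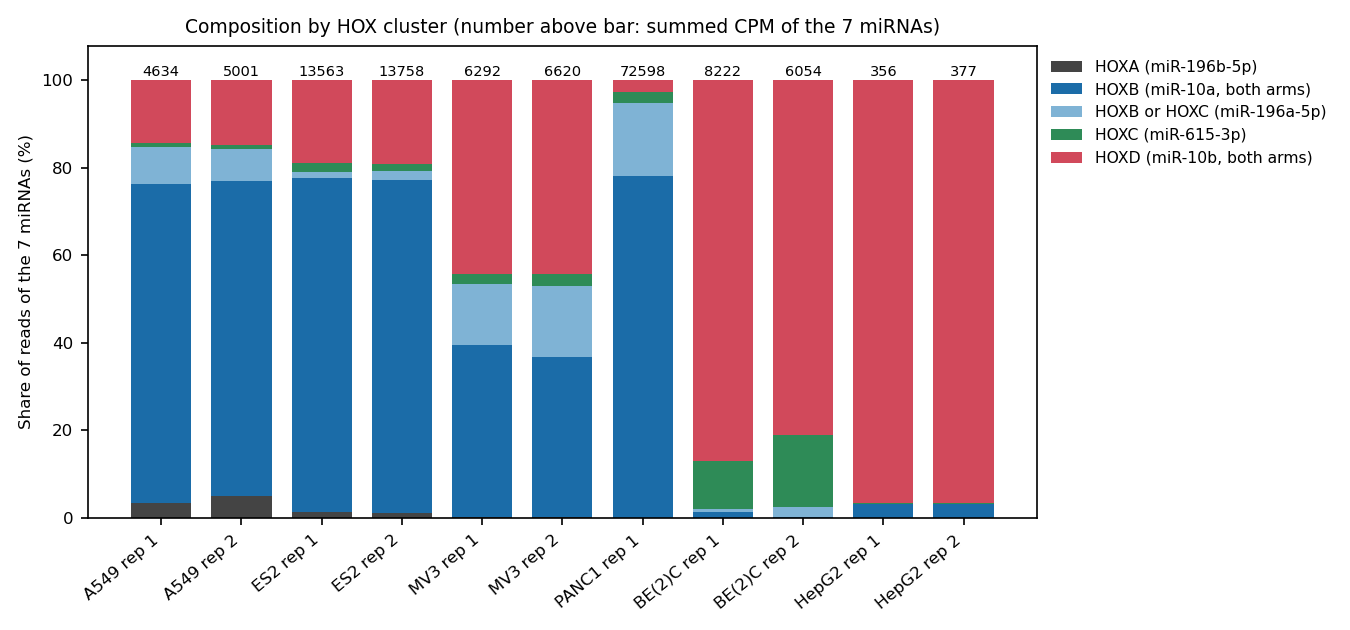
Share of the reads of the 7 miRNAs (%) by HOX cluster of origin in each library, with the summed CPM of the 7 above each bar. miR-10a (HOXB) makes up most of the reads in A549, ES2 and PANC1, and miR-10b (HOXD) most in the Novogene lines BE(2)C and HepG2, with a total of at most 377 CPM in HepG2.

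Few reads came from the other mature products of HOX cluster hairpins. miR-615-5p, the opposite arm of miR-615-3p, reached 7.40 ± 0.127 CPM (SD, n = 2) in BE(2)C, 1.95 CPM in PANC1 and at most 1.94 CPM in any other library. miR-196a-3p was at 0 in 9 of 11 libraries and reached 0.934 ± 0.193 CPM in BE(2)C, where both libraries held reads. miR-7704 stayed at or below 1.06 CPM, and miR-196b-3p and miR-3185 had no read in any library. miR-196a-1-3p, the 3p product of MIR196A1, was not among the listed miRNAs under that name, so that the miR-196a-3p values concern MIR196A2 alone.

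Relatives of the members by sequence are encoded outside the HOX clusters. miR-100-5p and let-7a-5p are shown because they share a run of letters with a member at a position shifted by 1 base.
miR-100-5p: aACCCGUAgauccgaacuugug
let-7a-5p: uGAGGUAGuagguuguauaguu
miR-10a-5p and miR-100-5p shared a run of 11 bases that starts at base 7 of the former and base 6 of the latter. The 7 bases of the miR-196 seed begin at base 3 of let-7a-5p, so that the seeds are offset. miR-100-5p stood highest in ES2 at 111145 ± 559 CPM (SD, n = 2) and MV3 at 69925 ± 7579 CPM, with 34818 CPM in PANC1, 8869 ± 284 CPM in A549 and 279 ± 159 CPM in BE(2)C. Over the 6 line means its pattern was close to that of miR-10a-5p (r = 0.92), and it differed from it in that ES2 and MV3 rather than PANC1 were highest. let-7a-5p stood at 105409 to 123545 CPM in ES2, MV3 and PANC1. Such values of r were not limited to sequence relatives. let-7a-5p had r = 0.89 with miR-10a-5p and 0.91 with miR-196a-5p, and miR-100-5p had 0.81 with miR-196a-5p. On CPM, these miRNAs were all lower in both Novogene lines than in every NEXTflex line, so that line and preparation cannot be told apart there. miR-99a-5p stood highest in BE(2)C at 53215 ± 1770 CPM and was at 40.9 CPM in PANC1, and its r with miR-10a-5p was -0.15 and with miR-10b-5p 0.85. Both miR-100-5p and let-7a-5p were lowest in HepG2, at 52.7 ± 44.3 and 182 ± 27.9 CPM on the CPM scale.

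For each guide strand, the 3 miRNAs with the most similar pattern were taken from 308 miRNAs that are not members, by Pearson's r over the 6 line means of log2(CPM + 1). For miR-10a-5p they were miR-30c-5p (r = 0.988), miR-98-5p (0.987) and miR-423-5p (0.985). For miR-10b-5p they were miR-26a-5p (0.965), miR-152-3p (0.937) and miR-339-3p (0.932). For miR-196a-5p they were miR-374b-5p (0.976), miR-505-3p (0.95) and miR-935 (0.948). For miR-196b-5p they were miR-942-5p (0.935), miR-30a-3p (0.909) and miR-30a-5p (0.909), and for miR-615-3p miR-1260a (0.981), miR-339-3p (0.968) and let-7a-3p (0.948). Between members, miR-10a-5p and miR-10b-5p had r = 0.22 and miR-196a-5p and miR-196b-5p r = 0.59, whereas the arms of miR-10a had r = 0.98, miR-10a-5p and miR-196a-5p 0.88 and miR-10b-5p and miR-615-3p 0.84. The miRNAs most alike to miR-10a-5p were, like it, lower in both Novogene lines than in every NEXTflex line, so that line and preparation cannot be told apart there. With 6 points that share the low scale of HepG2, these values are descriptions only.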

How the data were processed

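Small RNA reads of 11 libraries of untreated cells were counted per miRNA by the authors. The submitters' processing notes name cutadapt 1.14, Bowtie2 2.3.2, SAMtools 1.5, featureCounts 1.5.3, edgeR 3.30.3 and hg38, while the handling of multi-mapping reads and strand is not given in the sources used here. For 5 lines the deposited values are a scaled signal, reads divided by library size and by a factor set within the table of that line, and for PANC1 the deposited values are CPM. All nonzero values (100%) were whole multiples of 1 read within a tolerance of 0.01, so reads were recovered, rows of 1 name were summed and libraries rescaled to CPM. A miRNA was tested if the mean of any line reached 10 CPM, by limma 3.58.1 (R 4.3.3) with a trend on log2(CPM + 1), with Benjamini-Hochberg adjustment, two-sided contrasts and a threshold of 0.05. The lone PANC1 library was assumed to vary like the other lines. A fold change on this scale understates the change of low miRNAs. On simulated counts the test was checked first, with the same profile and spread in every line and changes in ES2 alone. This check does not cover the wide spread of the BE(2)C libraries or the scaling of HepG2. Alternatives were TMM, DESeq2 1.42.0 size factors, the deposited scale, and edgeR 4.0.16 quasi-likelihood on the recovered reads, itself with TMM scaling. Further ones were pseudocounts of 0.25 and 5, filters, the higher miR-196a row, a replicate block, leave-one-out fits and fits within a preparation. The text names all 7 members, other products of HOX cluster hairpins, sequence relatives and the 3 miRNAs most alike to each guide strand, among miRNAs whose mean reached 100 CPM in some line. Members, lists and markers were chosen with earlier results of these data known. Replicates differed by more than sampling noise in every line.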

Additional observations from a re-analysis of the deposited data

How the results depend on the processing

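All 7 members passed in both F tests under every alternative in which they could be tested. Without the filter 837 of 1608 miRNAs passed across the 6 lines, against 542 of 546, and edgeR's quasi-likelihood test on the recovered reads passed 523. The 89 passing differences between lines became 82 with TMM factors or DESeq2 size factors, 85 with edgeR, 79 with a filter at 100 CPM (miR-10b-3p was then not tested) and 84 to 95 when 1 library was left out. Replicate numbers did not pair the libraries (correlations of deviations -0.053 to 0.11 over 10 pairs of lines, 1 above 0.1), and the replicate block passed 87.

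Directions turned mostly with the scaling of HepG2, and the log2 differences were as follows for TMM factors, DESeq2 size factors and edgeR in this order. The edgeR fit also scaled the libraries by TMM, so that it is no separate check of the scaling. For miR-10b-5p, A549 minus HepG2 went from 0.97 to -1.51, -1.58 and -1.58, MV3 minus HepG2 from 2.99 to -0.29, -0.60 and -0.35, and PANC1 minus HepG2 from 2.38 to -0.83, -0.95 and -0.86, while ES2 minus HepG2 turned only with DESeq2 size factors, from 2.85 to -0.32. For miR-10a-5p, BE(2)C minus HepG2 went from 1.78 to -1.11, -1.29 and -0.86. Differences that had not passed also turned: miR-10b-5p, ES2 minus MV3, to 0.34, 0.29 and 0.39, miR-10b-3p, ES2 minus MV3, to 0.081, 0.028 and 0.13 (-0.82 to 0.052 with 1 library left out), miR-10b-3p, PANC1 minus HepG2, to -0.076, -0.11 and -0.19, and miR-196b-5p, BE(2)C minus HepG2, to -0.0055, -0.046 and -0.14. miR-10a-3p, A549 minus MV3, turned to 0.19 with DESeq2 size factors, and miR-196b-5p, A549 minus ES2, to -0.12 without A549 replicate 2 (-0.12 to 0.53 with 1 library left out). The HepG2 factors (0.166 and 0.217 for TMM) raise every HepG2 level. The cause of the other turns was not tested. Levels under about 3 reads per library, the HepG2 values of miR-196 and the 3p arms among them, are limited by depth.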

Other observations

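The miR-196a-5p reads were listed in a row for each hairpin, although the hairpins share the run of 23 bases that holds the mature sequence. The MIR196A1 row, on chromosome 17, held 38.6% to 47.3% of the reads of both rows in the 9 libraries of A549, ES2, MV3, PANC1 and BE(2)C, and 44.6% (95% Wilson interval 44.3% to 44.9%) in PANC1. A total of 31 miRNAs were listed in 2 rows and reached 1000 reads in some library. The share of the higher row, taken as the median over such libraries, was under 55% for 25 of them. Over all 31 its median was 51.1%. The higher miR-196a-5p row held a median of 56.7% over its 4 libraries with that many reads, and 4 of the 31 miRNAs lay above it. These row shares give no measure of how much of the miRNA came from HOXB or HOXC.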
